A study of Mus musculus with 18 samples.

Results

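The 10 genes described here are sensors of microbial material and 2 of the proteins that relay or restrain their signal, out of 54532 genes in the count table. They were chosen by name and are Tlr1, Tlr2, Tlr3, Tlr4, Tlr5, Tlr9, Nod1, Nod2, Myd88 and Tnfaip3. Expression was measured by poly(A) RNA sequencing of epithelial cells that had been freed mechanically from mouse colon in a cold EDTA buffer. There were 18 libraries in 6 groups of 3. The groups were distal and proximal colon of BL6 wild-type mice, of mice lacking Rab11-FIP1 (Rab11-FIP1 KO, below FIP1 knockout) and of mice lacking Rab11-FIP2 (Rab11-FIP2 KO, below FIP2 knockout), all without treatment. Rab11-FIP1 and Rab11-FIP2 are partner proteins of the small GTPase Rab11, which directs recycling endosomes toward the cell surface. The sources used here do not give the age or sex of the mice, how either allele was made, or whether the 3 replicates were different animals, so p-values measure only the spread between these libraries.

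Toll-like receptors are membrane receptors that bind conserved microbial molecules at the cell surface or inside endosomes, and most of them signal through the adaptor Myd88 to NF-kB. Nod1 and Nod2 are cytosolic receptors for fragments of bacterial cell wall and signal through the kinase Ripk2. Tnfaip3, also called A20, is a ubiquitin-editing enzyme that restrains NF-kB signalling downstream of both families. In the colon these receptors sit in an epithelium that is in constant contact with bacteria, where their amount and placement affect barrier upkeep and inflammation.

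The promoters of 5 genes whose level changed in at least 1 knockout are shown, from 250 bases before the annotated start to 20 after it, because 4 of the 5 rose and 1 fell. The start, from which motif positions are also counted, is the one listed with each promoter. It lies inside the gene span given below for Nod2, Tlr2, Tlr3 and Tnfaip3, as it does for Myd88. For Tlr5 it is the first base of that span. They lie on GRCm38.p6 at chr8:88647097-88647366 on the plus strand for Nod2, chr3:83841589-83841858 on the minus strand for Tlr2, chr8:45410361-45410630 on the minus strand for Tlr3, chr10:19015391-19015660 on the minus strand for the first of 2 Tnfaip3 promoters, and chr1:182954538-182954807 on the plus strand for Tlr5. The sequences are from RefSeq, run 5′ to 3′ and are in lower case, with matches to the kappaB motif, the site bound by NF-kB, in capitals.
Nod2: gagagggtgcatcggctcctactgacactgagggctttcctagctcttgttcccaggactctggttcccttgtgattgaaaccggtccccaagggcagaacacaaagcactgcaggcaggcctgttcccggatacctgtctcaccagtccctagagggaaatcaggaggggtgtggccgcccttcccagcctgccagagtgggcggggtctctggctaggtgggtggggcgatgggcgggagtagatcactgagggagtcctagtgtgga
Tlr2: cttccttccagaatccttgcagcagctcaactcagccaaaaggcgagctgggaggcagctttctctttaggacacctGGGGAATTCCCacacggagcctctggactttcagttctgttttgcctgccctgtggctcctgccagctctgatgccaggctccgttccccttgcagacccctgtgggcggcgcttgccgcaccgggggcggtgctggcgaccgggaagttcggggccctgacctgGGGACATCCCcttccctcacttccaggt
Tlr3: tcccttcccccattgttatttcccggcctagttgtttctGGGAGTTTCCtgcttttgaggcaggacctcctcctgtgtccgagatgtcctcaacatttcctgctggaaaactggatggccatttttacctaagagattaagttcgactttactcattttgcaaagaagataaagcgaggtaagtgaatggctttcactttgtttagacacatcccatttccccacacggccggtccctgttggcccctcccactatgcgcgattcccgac
Tnfaip3: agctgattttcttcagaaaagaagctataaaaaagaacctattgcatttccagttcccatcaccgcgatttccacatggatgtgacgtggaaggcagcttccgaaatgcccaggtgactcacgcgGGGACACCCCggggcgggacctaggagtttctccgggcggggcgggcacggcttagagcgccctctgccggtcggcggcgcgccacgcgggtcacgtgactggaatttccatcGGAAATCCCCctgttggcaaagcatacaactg
Tlr5: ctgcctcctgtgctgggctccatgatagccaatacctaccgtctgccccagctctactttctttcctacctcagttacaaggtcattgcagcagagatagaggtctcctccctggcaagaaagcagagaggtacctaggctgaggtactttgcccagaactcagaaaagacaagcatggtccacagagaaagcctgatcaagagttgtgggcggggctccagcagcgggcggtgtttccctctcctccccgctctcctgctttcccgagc
Promoters were listed for 9 of the 10 genes, 12 promoters in all; Tlr4 is named only. The search covered 300 bases, from 250 before the start to 50 after it, on both strands. Tlr2 held 3 kappaB matches, of which those starting at -173 and -172 overlap and the third starts at -8. Tlr3 held 1 at -211 and Tnfaip3 held 2, at -125 and -12, while 4.51% of all 32851 promoters of the same length held at least 1. The interferon-stimulated response element, searched as GAAA, any 2 bases and GAAA again, was found in 3.44% of all promoters and among these genes only in Myd88, at -40. TTCNNNGAA, the interferon gamma-activated site, was found in 8.3% of all promoters, and here in Myd88 at -46, where it overlaps the previous match, in the second Tlr1 promoter at -228 and in the second Nod1 promoter at -193. None of the 3 motifs was present in the windows of Nod2, Tlr5 or Tlr9.

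The libraries held 11193308 to 22062300 counts. All 13 epithelial markers examined, among them Epcam and Vil1, were detected in every group, with a summed level of 15900 to 52300 CPM per library, where CPM is the standard scaled count relative to the library total after TMM correction for composition. In distal colon Rab11fip1 was 48.5 ± 2.1 CPM in FIP1 knockouts and 116 ± 20.5 in wild type, and Rab11fip2 was 3.52 CPM in FIP2 knockouts and 7.38 in wild type. Both were also lower in the proximal knockouts, at 67.5 against 138 CPM and 3.67 against 6.61. The deleted parts of the genes are not given in the sources used here. Mitochondrially encoded transcripts took 18.1% to 32.3% of counts in wild type and 11.2% to 20.1% in the knockouts, and without these transcripts each comparison called as many of the 10 genes as with them. Their removal shifted the median change of all genes by 0.001 or less in either direction, so it could hardly alter a call. Whether what lies behind the difference in share bears on the 10 genes was not tested. Forebrain neuron transcripts (8 genes) summed to 17, 21.2 and 119 CPM in the wild-type proximal libraries, the highest in the second, against 0.644 to 2.47 CPM in proximal FIP1 knockouts and 1.74 to 7.83 in proximal FIP2 knockouts. Of 7 tested, 7 and 6 were called lower there, beside 6.89% and 7.07% of all tested genes. In distal colon the sums were 9.66 to 10.2 CPM in wild type, 7.66 to 8.29 in FIP1 knockouts and 0.827 to 2.09 in FIP2 knockouts. There 0 and 6 were called lower, beside 7.47% and 9.38% of all tested genes. Their part in the results was not tested. No 2 libraries agreed within sampling noise.

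Of the 10 genes, 9 passed the filter on low counts and were among the 17692 genes tested. Tlr9, the endosomal receptor for bacterial and viral DNA, did not pass, with 0 to 18 counts per library. Its counts in distal colon were 2, 1 and 6 in wild type, 15, 5 and 18 in FIP1 knockouts, and 6, 8 and 9 in FIP2 knockouts. In proximal colon they were 0, 2 and 0 in wild type, 4, 1 and 1 in FIP1 knockouts, and 1, 4 and 4 in FIP2 knockouts. With so few counts no fold is given here, though runs without the filter included it.

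Levels of different genes were compared per length, in the deposited FPKM (fragments scaled to transcript length and library size) averaged over the 6 groups. Tlr1, which pairs with Tlr2 to bind bacterial lipopeptides, was highest at 46.3 FPKM. Tnfaip3 followed at 32.9, Tlr3 at 27.6, Tlr4 at 26.6, Tlr2 at 15.9, Myd88 at 13.5 and Nod1 at 7.59 FPKM. Tlr5, Nod2 and Tlr9 were lowest, at 2.13, 1.2 and 0.0879 FPKM. The authors' FPKM used the mean length of a gene's annotated transcripts, 2075 bases for Tlr1 and 1773 for Tlr4. Per kilobase of the longer gene length listed in the table, Tlr1 stayed first at 28.7 CPM per kilobase, and Tlr2 came second at 16.1, ahead of Tnfaip3 at 12.5, so the order in the middle depends on the length used.

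**Figure D1:**
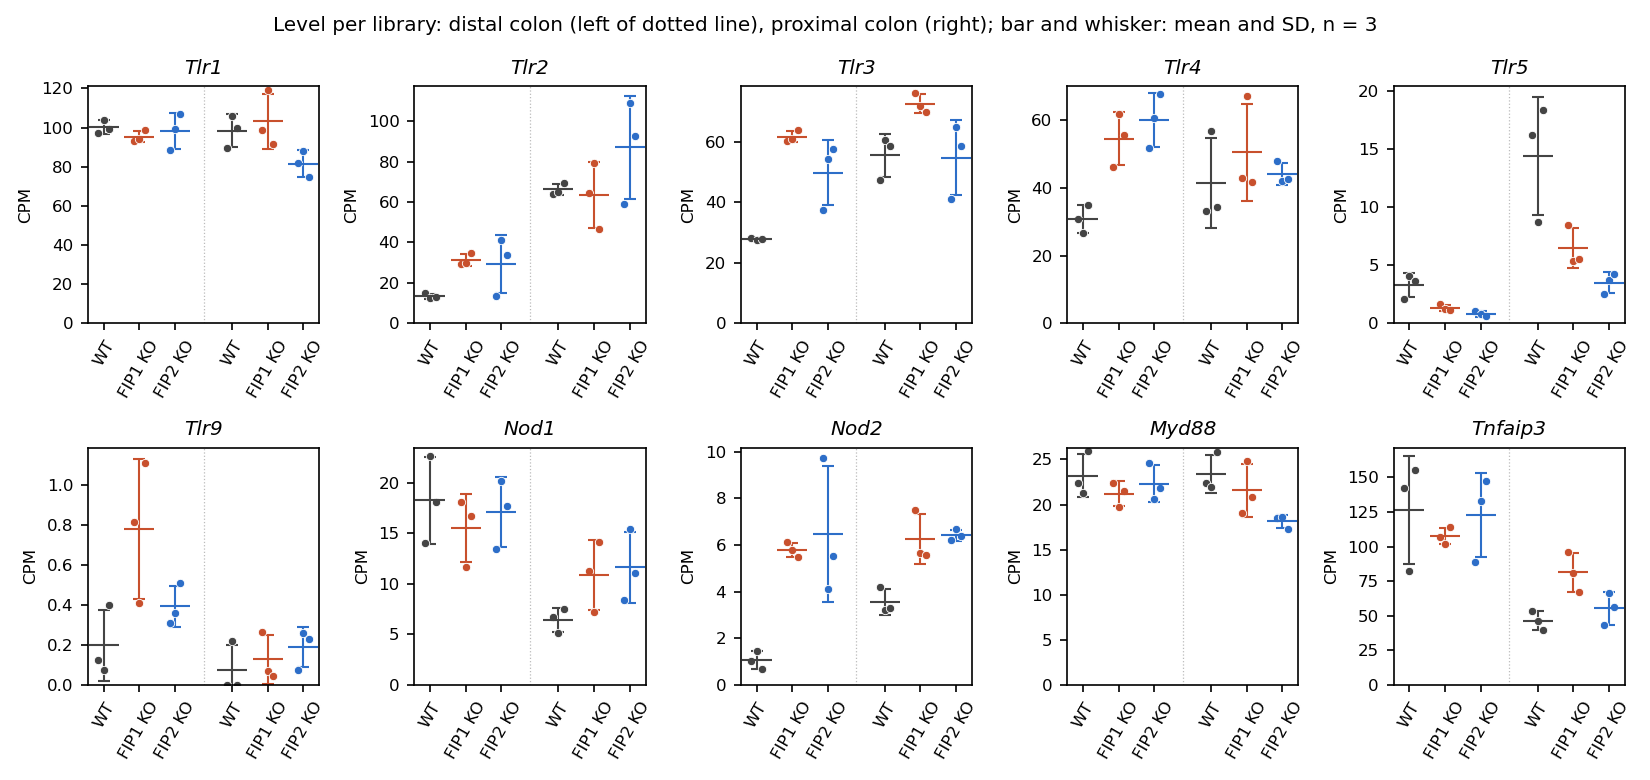
Level of each of the 10 genes in CPM (vertical axes, each from 0) in every library, by genotype, with distal colon left and proximal colon right of the dotted line. Points are libraries, and the bar and whiskers are the mean and SD of 3. Nod2 in wild-type distal colon (0.669 to 1.44 CPM) lies below all 6 distal knockout libraries, and Tlr5 is lower in both knockouts than in wild type within each segment.

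In distal colon, 5 of the 9 tested genes changed in FIP1 knockouts against wild type: Nod2, Tlr2, Tlr3 and Tlr4 rose and Tlr5 fell. In FIP2 knockouts 5 changed as well, with Nod2, Tlr2, Tlr3 and Tlr4 higher and Tlr5 lower. The test was edgeR's quasi-likelihood test with Benjamini-Hochberg adjustment over all tested genes, called at an adjusted p under 0.05. Of all tested genes, 16.3% were called in FIP1 knockouts (8.84% higher, 7.47% lower) and 18.5% in FIP2 knockouts (9.13% higher, 9.38% lower). That balance depends on the method: edgeR called 1564 genes higher and 1322 lower in FIP1 knockouts where limma on log2(FPKM + 1) called 1995 and 834. In FIP2 knockouts edgeR called 1615 and 1659 where limma called 1587 and 1109 on log2(FPKM + 1) and 1651 and 1034 on log2(FPKM + 0.1). Limma on FPKM changes both the scaling and the test. With relative log expression size factors, edgeR called 1590 and 1291 in FIP1 knockouts and 1665 and 1620 in FIP2 knockouts. Both knockouts were compared with the same 3 wild-type libraries, so the 2 comparisons are not independent. The median change of the 9 genes was -0.07 on the log2 scale in FIP1 knockouts and -0.03 in FIP2 knockouts, beside -0.002 and 0 over all tested genes.

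Nod2 (ENSMUSG00000055994, chr8:88647315-88688474, plus strand, GRCm38), the receptor for muramyl dipeptide, changed most. Its level in wild-type distal colon was 1.04, 1.44 and 0.669 CPM. FIP1 knockouts held 6.11, 5.77 and 5.5 CPM, and FIP2 knockouts 9.72, 4.13 and 5.54. Every knockout library was above every wild-type library. In distal colon 18.3% of all tested genes lay above wild type without overlap in FIP1 knockouts and 17.4% below. In FIP2 knockouts these shares were 17.9% and 19.7%. The change was 2.46 ± 0.33 (log2, SE) in FIP1 knockouts, 5.5-fold, with an edgeR adjusted p of 5.06e-05, and 2.61 ± 0.33 in FIP2 knockouts, 6.12-fold, with an adjusted p of 2.24e-05. These levels rest on 10 to 20 reads per library in wild type and 70 to 188 in the knockouts.

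Tlr2 (chr3:83836272-83841767, minus strand), the surface receptor for bacterial lipoproteins, was at 14.9, 12.7 and 12.8 CPM in wild-type distal colon. FIP1 knockouts held 29.2, 29.7 and 34.8 CPM, all above wild type. The change was 1.21 ± 0.3, with an edgeR adjusted p of 0.00917. In FIP2 knockouts the first library, at 13.5 CPM, lay within the wild-type range, and the others held 41.2 and 33.9. That change was 1.13 ± 0.3, with an edgeR adjusted p of 0.0129, and it missed the threshold without the third wild-type library (adjusted p 0.0524) or without the second FIP2 knockout library (0.81, adjusted p 0.0863).

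Tlr3 (chr8:45395665-45411080, minus strand), the endosomal receptor for double-stranded RNA, varied least in wild-type distal colon, with 28.2, 27.4 and 27.7 CPM. Levels in FIP1 knockouts were 60.3, 60.8 and 63.8 CPM, and in FIP2 knockouts 37.5, 54.1 and 57.6. No knockout library overlapped wild type. The change was 1.15 ± 0.17 in FIP1 knockouts (edgeR adjusted p 0.000164) and 0.84 ± 0.17 in FIP2 knockouts (0.00241). The exons of Tlr3 overlap an antisense gene, Gm45542, which had 1 count over all libraries.

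Tlr4 (chr4:66827584-66930284, plus strand), the receptor for lipopolysaccharide, was at 30.9, 26.8 and 35 CPM in wild-type distal colon. FIP1 knockouts held 46.3, 62 and 55.7 CPM and FIP2 knockouts 51.9, 60.8 and 67.8, again with no overlap. The change was 0.82 ± 0.21 in FIP1 knockouts (edgeR adjusted p 0.0119) and 0.96 ± 0.21 in FIP2 knockouts (0.00397). The FIP1 call was lost without the second wild-type library (edgeR adjusted p 0.056) or without the second FIP1 knockout library (0.0627).

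Tlr5 (chr1:182954788-182976044, plus strand), the receptor for flagellin, was the 1 gene of the set that fell. Its wild-type distal levels were 2.09, 4.11 and 3.68 CPM. They were 1.64, 1.24 and 1.17 CPM in FIP1 knockouts and 1.09, 0.764 and 0.622 in FIP2 knockouts, below every wild-type library. The change was -1.27 ± 0.36 in FIP1 knockouts (edgeR adjusted p 0.0197) and -1.98 ± 0.37 in FIP2 knockouts (0.00107), on 11 to 30 reads per knockout library. The FIP1 value missed the threshold when any of 4 libraries was left out (edgeR adjusted p up to 0.0815) and in limma on log2(FPKM + 1) (adjusted p 0.144).

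The other 4 tested genes did not pass in distal colon. Tlr1 (chr5:64924679-64933563, minus strand) ranged from 88.7 to 107 CPM over the 9 distal libraries; it has a close paralog, Tlr6, and how reads matching both were counted is not given in the sources used here. Myd88 (chr9:119335934-119341411, minus strand), the shared adaptor, ranged from 19.7 to 25.9 CPM, and its change was -0.13 ± 0.14 in FIP1 knockouts and -0.05 ± 0.14 in FIP2 knockouts. Exons of Myd88 overlap those of Acaa1a on the opposite strand, which had 823 to 3057 counts per library; whether counting used strand is not given in the sources used here, so Myd88 is uncertain. Nod1, the receptor for a peptidoglycan fragment common in Gram-negative bacteria, was at 11.7 to 22.6 CPM with overlapping groups. Tnfaip3 ranged from 82 to 155 CPM, also with overlap.

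**Figure D2:**
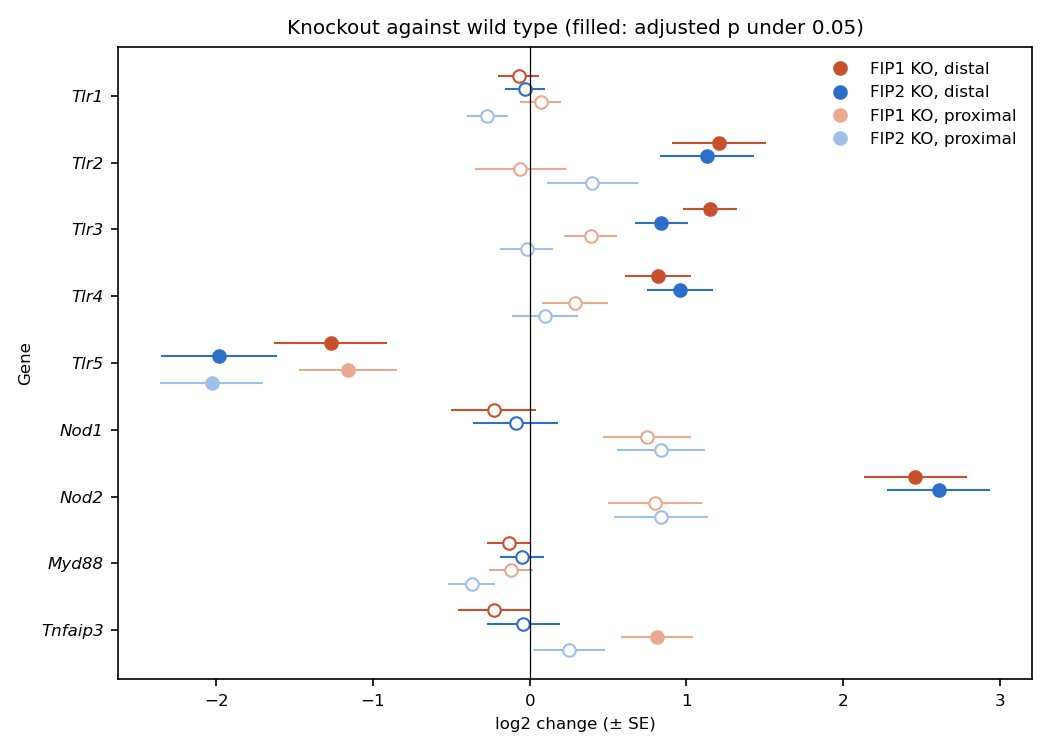
Change in log2 units (horizontal axis, ± SE) of the 9 tested genes in each knockout against wild type of the same segment. Filled points have an adjusted p under 0.05. The distal points of Nod2, Tlr2, Tlr3 and Tlr4 are filled and to the right of 0, those of Tlr5 are filled and to the left in all 4 comparisons, and the proximal points of Tlr2, Tlr3 and Tlr4 are open.

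In proximal colon fewer of the genes changed. Tlr5 fell in both knockouts, Tnfaip3 rose in FIP1 knockouts, and no other gene of the set passed. Background calls were 13.6% of tested genes in FIP1 knockouts (6.7% higher, 6.89% lower) and 14.7% in FIP2 knockouts (7.6% higher, 7.07% lower), so 2 and 1 of 9 are near the background share. By edgeR 1185 genes were called higher and 1219 lower in FIP1 knockouts and 1344 and 1250 in FIP2 knockouts, where limma on log2(FPKM + 1) called 1433 and 744, and 1650 and 728.

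Tlr5 in wild-type proximal colon was 16.2, 8.68 and 18.3 CPM. FIP1 knockouts held 8.42, 5.37 and 5.53 CPM and FIP2 knockouts 2.52, 3.75 and 4.24, all below the lowest wild-type library. Here 13.7% and 14% of all tested genes lay below wild type without overlap in FIP1 and FIP2 knockouts. The change was -1.16 ± 0.31 in FIP1 knockouts (2.24-fold lower, edgeR adjusted p 0.0185) and -2.03 ± 0.33 in FIP2 knockouts (4.09-fold lower, adjusted p 0.000473). The FIP1 call was lost when 4 of the 6 compared libraries were left out in turn, most without the third wild-type library (-0.95, edgeR adjusted p 0.0856). The second wild-type library, which had the most forebrain transcripts, was the lowest of its group, and without it the FIP1 change was -1.42. The remaining wild-type libraries still held more of these transcripts than any proximal knockout library.

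Tnfaip3 (chr10:19000910-19015657, minus strand) in wild-type proximal colon was 53.3, 46.3 and 39.5 CPM. FIP1 knockouts held 95.8, 81.1 and 67.3 CPM, above every wild-type library, and FIP2 knockouts 43.1, 66.3 and 56.4, overlapping it. The change was 0.81 ± 0.23 in FIP1 knockouts (edgeR adjusted p 0.0244) and 0.25 ± 0.23 in FIP2 knockouts (0.493). The FIP1 call was lost without the third wild-type library (edgeR adjusted p 0.0907) or without the first FIP1 knockout library (0.112).

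The mean levels of both Nod genes were above wild type without passing. Nod2 was 4.2, 3.19 and 3.3 CPM in wild-type proximal colon, 7.49, 5.66 and 5.58 in FIP1 knockouts and 6.19, 6.67 and 6.39 in FIP2 knockouts. No knockout library overlapped wild type, where 13% and 15.3% of tested genes lay above wild type without overlap in FIP1 and FIP2 knockouts. The Nod2 changes were 0.8 ± 0.3 (edgeR adjusted p 0.0821) and 0.84 ± 0.3 (0.0631), and the FIP2 value passed in DESeq2 (adjusted p 0.0405). Nod1 (chr6:54923949-54972612, minus strand) was 6.71, 5.16 and 7.5 CPM in wild type, 11.3, 7.23 and 14.1 in FIP1 knockouts and 8.41, 15.4 and 11.1 in FIP2 knockouts. Its changes were 0.75 ± 0.28 (edgeR adjusted p 0.0858) and 0.84 ± 0.28 (0.0512), and the FIP2 value passed in DESeq2 (adjusted p 0.0273).

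Tlr2, Tlr3 and Tlr4 did not pass in proximal colon in either knockout. Proximal Tlr2 was 64.2, 65 and 69.4 CPM in wild type, 64.6, 79.3 and 46.8 in FIP1 knockouts and 59.2, 109 and 92.7 in FIP2 knockouts, with overlapping groups. Tlr3 was 47.4, 60.5 and 58.6 CPM in wild type against 75.9, 71.8 and 69.8 in FIP1 knockouts, a change of 0.39 ± 0.17 that did not pass (edgeR adjusted p 0.152), though it did in limma on log2(FPKM + 1) (adjusted p 0.0413). Tlr4 in wild type was 33.2, 56.8 and 34.3 CPM, the high value being the library with most forebrain transcripts, and its changes were 0.29 ± 0.21 and 0.1 ± 0.21. Myd88 was 17.3 to 18.6 CPM in FIP2 knockouts and 21.9 to 25.8 in wild type, a change of -0.37 ± 0.15 that did not pass (edgeR adjusted p 0.0974).

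Between segments of wild-type colon, 6 of the 9 tested genes differed. Tlr2, Tlr5, Nod2 and Tlr3 were higher in proximal colon, and Nod1 and Tnfaip3 were higher in distal colon. Of all tested genes 16.4% were called (8.96% higher in proximal colon, 7.39% lower), that is 1585 higher and 1308 lower, against 1129 and 1497 in limma on log2(FPKM + 1). Tlr2 was 4.91-fold higher proximally (2.3 ± 0.31, edgeR adjusted p 2.64e-05), with 66.2 against 13.5 CPM on average. Tlr5 was 4.39-fold higher (2.13 ± 0.33, adjusted p 0.00012) and Nod2 3.39-fold higher (1.76 ± 0.34, adjusted p 0.000962), both by edgeR. Tlr3 was at 55.5 CPM proximally and 27.8 distally, a change of 1 ± 0.17 (edgeR adjusted p 0.00039). The groups did not overlap for any of the 6, where 14.3% of tested genes were higher and 14% lower in proximal colon without overlap.

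Nod1 ran opposite to Nod2 along the wild-type colon. It was at 6.46 CPM in proximal and 18.2 CPM in distal colon (-1.48 ± 0.28, edgeR adjusted p 0.000945). Tnfaip3 was at 46.4 CPM proximally and 126 CPM distally (-1.45 ± 0.23, edgeR adjusted p 0.000181). All 6 calls held when each wild-type library was left out in turn. In limma on log2(FPKM + 1), which compresses low levels, the Nod2 difference was 0.51 and missed the threshold (adjusted p 0.0656).

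In FIP1 knockouts 2 of the 9 differed between segments, where 6.6% of tested genes were called (2.94% higher in proximal colon, 3.65% lower). Tlr5 was 2.24 ± 0.35 higher in proximal colon (edgeR adjusted p 0.000331) and Tlr2 was 1.02 ± 0.29 higher (0.0381). The Tlr2 call was lost when any of 5 of the 6 libraries was left out (edgeR adjusted p up to 0.173). In FIP2 knockouts 3 of the 9 differed, where 9.47% of tested genes were called (4.99% higher in proximal colon, 4.49% lower). Tlr5 was 2.08 ± 0.37 higher in proximal colon (edgeR adjusted p 0.000727), Tlr2 1.56 ± 0.29 higher (0.00137) and Tnfaip3 was lower, at -1.15 ± 0.23 (0.00235). Nod2 was 6.24 against 5.79 CPM in FIP1 knockouts and 6.42 against 6.46 CPM in FIP2 knockouts, proximal against distal, with changes of 0.1 ± 0.29 and -0.01 ± 0.28.

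**Figure D3:**
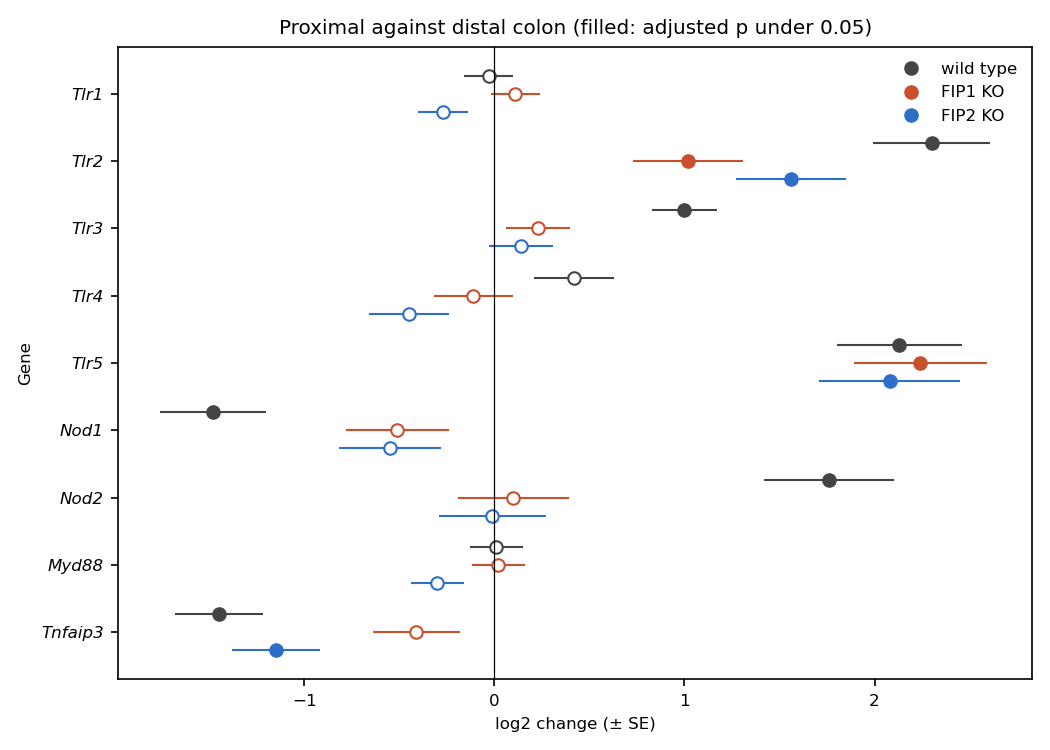
Proximal against distal colon within each genotype, in log2 units (horizontal axis, ± SE), for the 9 tested genes. Filled points have an adjusted p under 0.05, and positive values are higher in proximal colon. Tlr5 is filled at 2.08 to 2.24 in all 3 genotypes, and the Nod2 point is at 1.76 in wild type and at 0.1 and -0.01 in the knockouts.

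Whether a knockout's change differed between segments was tested as the proximal change minus the distal change. No gene of the set passed in either knockout, where 0.644% of all tested genes were called for FIP1 (0.136% higher, 0.509% lower) and 0.328% for FIP2 (0.0735% higher, 0.254% lower). For FIP2 that is 13 genes higher and 45 lower, against 90 and 161 in DESeq2 and 55 and 65 in limma on log2(FPKM + 1). At an unadjusted p under 0.05 there were 5 genes in FIP1 knockouts and 4 in FIP2 knockouts by edgeR, where 9.28% and 10% of all tested genes reached it, and DESeq2 called 1 in each. That gene was Nod2, with edgeR values of -1.66 ± 0.44 (adjusted p 0.104, 95% interval -2.58 to -0.73) and -1.77 ± 0.44 (adjusted p 0.105, 95% interval -2.69 to -0.85). The DESeq2 adjusted p was 0.0265 and 0.0167, and limma on log2(FPKM + 1) called 0 in each. Tlr3 was -0.77 ± 0.24 in FIP1 knockouts and -0.86 in FIP2 knockouts, Tlr2 was -1.27 ± 0.41 and -0.74, and Tnfaip3 was 1.04 ± 0.32 and 0.29. With the replicate number as a block, Tlr2 (-1.3, edgeR adjusted p 0.0236) and Tlr3 (-0.76, adjusted p 0.0466) passed for FIP1 knockouts and Tlr3 (-0.85, adjusted p 0.0271) for FIP2 knockouts.

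The 2 knockouts were also compared with each other. None of the 9 genes was called by edgeR, DESeq2 or limma in either segment, where 1.86% of tested genes were called in distal and 2.75% in proximal colon (1.33% higher in FIP1 knockouts, 1.42% lower). In distal colon edgeR called 215 genes higher and 114 lower in FIP1 knockouts, and limma on log2(FPKM + 1) 326 and 92. In distal colon 0 of the 9 and 14.5% of all tested genes had an unadjusted p under 0.05, and the 95% interval of the FIP1 minus FIP2 difference was -0.75 to 0.44 for Nod2, -0.52 to 0.69 for Tlr2 and -0.09 to 1.52 for Tlr5. In proximal colon 4 of the 9 and 18.5% of all tested genes had one. The 4 were higher in FIP1 knockouts: Tlr1 by 0.34 (95% interval 0.06 to 0.61), Tlr3 by 0.4 (0.05 to 0.76), Tlr5 by 0.87 (0.19 to 1.55) and Tnfaip3 by 0.56 (0.08 to 1.04). Their edgeR adjusted p ranged from 0.156 to 0.203.

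The rest of the pathway was read from lists chosen by function, with earlier results of these data known. The counts from them are descriptions. Of the 6 other Toll-like receptors only Tlr6 was tested; its group means were 0.764 to 1.6 CPM and it was not called. Of 9 tested co-receptors and trafficking factors, 2 rose and 0 fell in distal FIP1 knockouts, and 3 rose and 0 fell in distal FIP2 knockouts. In proximal colon 1 rose and 1 fell in FIP1 knockouts, and 3 rose and 0 fell in FIP2 knockouts. Over all tested genes, 16.3% and 18.5% were called either way in distal FIP1 and FIP2 knockouts, and 13.6% and 14.7% in proximal ones. Lbp, which carries lipopolysaccharide, rose from 1.29 to 12.2 CPM in FIP1 knockouts (3.25 ± 0.44) and to 15.1 CPM in FIP2 knockouts (3.55 ± 0.45). Cd14, the lipopolysaccharide co-receptor of Tlr4, rose from 25.8 to 61.6 CPM in FIP1 knockouts (edgeR adjusted p 0.0224) and to 155 CPM in FIP2 knockouts (0.000107). In proximal colon Cd14 rose in FIP2 knockouts, from 18.1 to 79 CPM (2.13 ± 0.37). Hsp90b1, the chaperone that folds Toll-like receptors, rose in both segments of FIP2 knockouts, from 534 to 1150 CPM distally and from 538 to 1100 CPM proximally. Unc93b1, which escorts endosomal Toll-like receptors out of the endoplasmic reticulum, rose in both proximal knockouts, by 0.85 ± 0.21 and 0.83 ± 0.21.

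Of the 23 adaptors and kinases, 1 rose and 1 fell in distal FIP1 knockouts, 1 rose and 2 fell in distal FIP2 knockouts, 2 rose and 0 fell in proximal FIP1 knockouts, and 2 rose and 1 fell in proximal FIP2 knockouts. These 2, 3, 2 and 3 calls stand beside 16.3%, 18.5%, 13.6% and 14.7% of all tested genes, so the share is near or below the background. Pik3ap1, an adaptor that links Toll-like receptors to PI3-kinase, rose from 0.414 to 2.61 CPM in distal FIP1 knockouts, and Tirap, which bridges Tlr2 and Tlr4 to Myd88, from 20.1 to 32.6 CPM in distal FIP2 knockouts. Irak2, a kinase that binds the Myd88 complex, fell in both distal knockouts, from 70.9 to 38.1 and 38.5 CPM. Ripk2, the kinase that carries the Nod signal, rose in both proximal knockouts, from 9.45 to 19.8 CPM (edgeR adjusted p 0.000872) and to 15.2 CPM (0.021). Birc3, a ubiquitin ligase that acts with it, rose there by 0.64 ± 0.16 and 0.55 ± 0.16. Of 9 NF-kB and IRF transcription factors, 3 rose and 2 fell in distal FIP1 knockouts, and 2 rose and 1 fell in distal FIP2 knockouts. Rel and Irf8 were among those that rose and Relb among those that fell in each. In proximal colon 1 rose and 1 fell in FIP1 knockouts and 1 rose and 0 fell in FIP2 knockouts. The factor that rose was Irf8, from 50.3 to 99 and 100 CPM.

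Of 23 tested negative regulators, 9 rose and 0 fell in distal FIP1 knockouts, 10 rose and 1 fell in distal FIP2 knockouts, 4 rose and 0 fell in proximal FIP1 knockouts, and 4 rose and 1 fell in proximal FIP2 knockouts. Of all tested genes 8.84%, 9.13%, 6.7% and 7.6% were called higher in these comparisons. The median change of the list was 0.32, 0.46, 0.15 and 0.15, beside medians over all tested genes of -0.002, 0, -0.012 and -0.02. Socs1, Tnip3, Zc3h12a and Nfkbia rose in all 4 comparisons. Tnip3, a partner of Tnfaip3, rose from 33.2 to 111 and 168 CPM in distal FIP1 and FIP2 knockouts, and from 11.9 to 46.3 and 49.7 CPM in proximal colon. Socs1, an inhibitor of cytokine signalling, rose by 1.46 to 2.17. Zc3h12a, an RNase that degrades inflammatory transcripts, rose by 1.1 to 1.53, and Nfkbia, the inhibitor that holds NF-kB in the cytosol, by 0.47 to 0.71. Atf3 and Nfkbie rose in both distal knockouts. Tnip1, another partner of Tnfaip3, fell in distal FIP2 knockouts, from 122 to 71.7 CPM, and Pdlim2, which promotes the breakdown of NF-kB, fell in proximal FIP2 knockouts, from 72.4 to 39.5 CPM.

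Of 7 tested cytosolic nucleic acid sensors, 5 rose and 0 fell in each distal knockout, 3 rose in proximal FIP1 knockouts and 2 in proximal FIP2 knockouts, with 0 falling. The shares of all tested genes called higher were 8.84% and 9.13% in distal FIP1 and FIP2 knockouts and 6.7% and 7.6% in proximal ones. Ddx60, a helicase that assists RNA sensing, rose from 20 to 133 CPM in distal FIP1 knockouts (2.73 ± 0.28, edgeR adjusted p 2.12e-06) and to 69.8 CPM in distal FIP2 knockouts (1.8 ± 0.27). Ddx58, the RNA sensor RIG-I, rose from 14.6 to 36.8 and 26.2 CPM. Tmem173, the DNA pathway adaptor STING, rose in all 4 comparisons, most in proximal FIP2 knockouts, from 1.16 to 12.2 CPM (3.37 ± 0.38, edgeR adjusted p 1.22e-05). Like Tlr3, Ddx60 and Ddx58 were higher in proximal than in distal wild-type colon, by 1.9 ± 0.27 and 1.03 ± 0.17, while Tmem173 was lower, at 1.16 against 5.46 CPM.

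**Figure D4:**
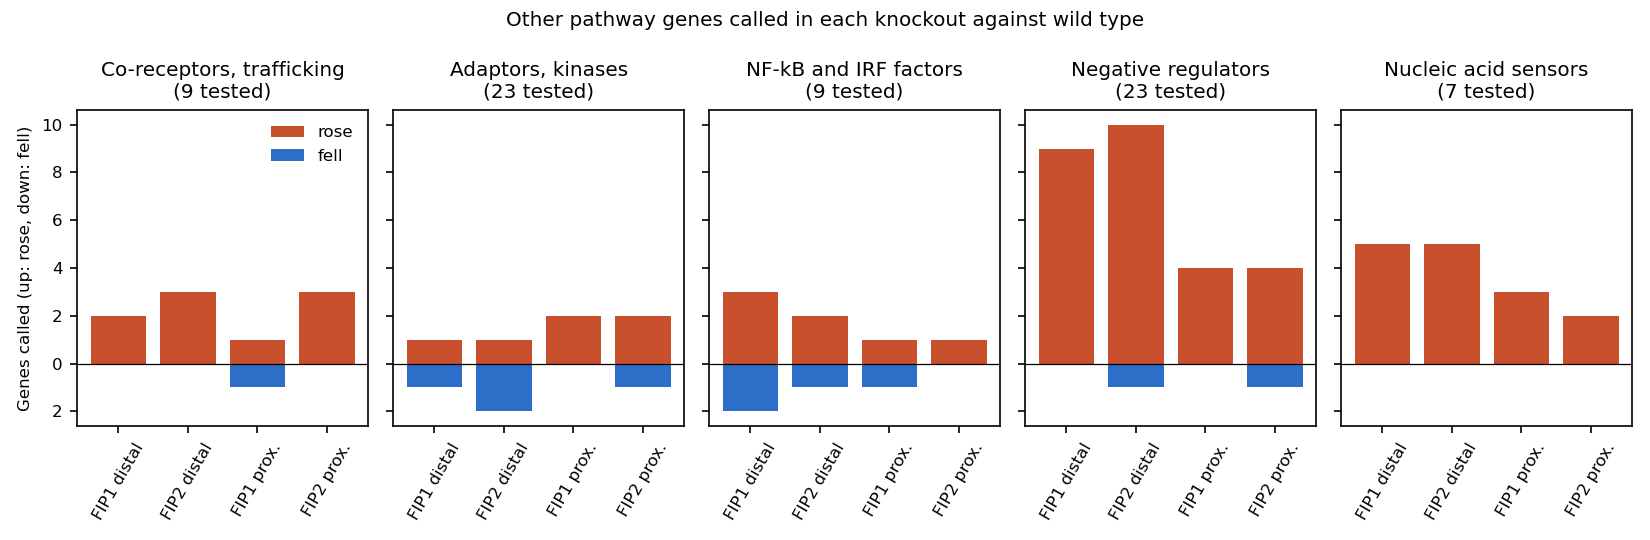
Number of genes called in 5 lists of pathway genes (vertical axis, genes that rose above 0 and that fell below 0) in each knockout against wild type of the same segment. Negative regulators reach 9 and 10 genes in distal colon and 4 in each proximal comparison, and nucleic acid sensors reach 5 of 7 in both distal comparisons. Over all tested genes, 8.84% and 9.13% were called higher in distal FIP1 and FIP2 knockouts and 6.7% and 7.6% in proximal ones.

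Some markers of immune cells were also called higher in the knockouts, in both segments. In bulk RNA, more cells of a type and more RNA per cell cannot be told apart. The 13 markers of T cells and innate lymphocytes summed to 7.38 to 11.6 CPM in wild-type distal libraries, 26.1 to 34.2 in FIP1 knockouts and 26.3 to 41 in FIP2 knockouts, and 8 and 7 of 12 tested rose. In proximal colon they summed to 14.5 to 17, 45.5 to 77.3 and 118 to 147 CPM, and 7 and 8 rose. For these and the marker counts below, the background is the share of all tested genes called higher. It was 8.84% and 9.13% in distal FIP1 and FIP2 knockouts and 6.7% and 7.6% in proximal ones. Macrophages and dendritic cells also express several of these receptors. Their 16 markers summed to 10.4 to 34.6 CPM in wild-type distal colon, with Cd163 and Fcgr1 at 0, against 27.6 to 49.7 in FIP1 knockouts and 20.2 to 31.4 in FIP2 knockouts, so that the ranges overlapped. The medians of the 3 groups were 12.8, 48 and 25.9 CPM, and 1 wild-type library, at 34.6, made the overlap. Of 13 tested, 2 and 1 rose distally. In proximal colon the sums were 12.4 to 63.3, 22.8 to 49.7 and 33.4 to 47.9 CPM, with medians of 14, 28.7 and 41.2, and 2 and 2 rose. Of 9 tested B and plasma cell markers, 6 rose in distal and 1 in proximal FIP1 knockouts, and 2 in distal and 8 in proximal FIP2 knockouts. The 9 neutrophil markers summed to 77 to 171 CPM in wild-type distal libraries, 201 to 234 in FIP1 knockouts and 222 to 280 in FIP2 knockouts, and in proximal colon to 0.075 to 2.31, 9.76 to 12.9 and 3.43 to 9.33 CPM. Most of the distal sum was Ly6g, with means of 127, 218 and 256 CPM, which did not pass distally (edgeR adjusted p 0.142 and 0.051). Of 2 tested, 1 rose in each distal knockout, 1 in proximal FIP1 knockouts and 2 in proximal FIP2 knockouts. The distal one was S100a8, which like S100a9 and 4 other markers was at 0 in wild-type distal colon. Of 9 tested fibroblast and muscle markers, 2 rose in distal FIP1 knockouts and 0 in the other knockout groups. All 10 summed to 14.1 to 51.6 CPM in wild-type distal colon, 28.5 to 121 in FIP1 knockouts and 16.1 to 40.9 in FIP2 knockouts. Of 5 tested endothelial markers, 1 fell in each distal knockout, 0 in proximal FIP1 and 1 in proximal FIP2 knockouts. The shares of all tested genes called lower were 7.47%, 9.38%, 6.89% and 7.07%. The part of any of these cells in the receptor changes was not tested.

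Across the 18 libraries the levels of some of the genes moved together. On log2 CPM, Pearson's r was 0.766 for Tlr2 and Tlr3, 0.733 for Tlr3 and Nod2, and 0.73 for Nod1 and Tnfaip3, and -0.692 for Tlr5 and Tnfaip3. These values pool genotypes and segments and are descriptions. By the same measure the genes most like each member, among those with a mean of at least 1 CPM, were Mlkl, Lpo and Plet1 for Nod2 (r 0.941, 0.94 and 0.939), H2-Q2 for Tlr2 (0.942), Apol7a for Tlr3 (0.942), Surf1 and Cpt2 for Tlr5 (0.951 and 0.947), Rcbtb1 for Nod1 (0.924) and Snx25 for Tnfaip3 (0.952). The gene most like Tlr4 was Rab11a, which encodes the GTPase that both deleted proteins bind, at 0.902. Tlr1 and Myd88 had the lowest best matches, 0.799 with Gsdmcl-ps and 0.861 with Gm10277.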

How the data were processed

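The authors deposited whole-number read counts per gene and FPKM values for 18 libraries of 150-base reads. The deposited counts were made on GRCm38, and STAR 2.5, TopHat, HTSeq 0.6.1 and DESeq2 are named in the submitters' processing notes, without their roles. The deposited FPKM divide each count by the library total and by 1 length per gene, which held in 30034 of 30034 genes checked (tolerance 1e-04). For the members that length is the mean annotated transcript length.

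From the counts, edgeR 4.0.16 in R 4.3.3 (TMM scaling, filterByExpr, quasi-likelihood test) was fitted once to all 18 libraries with 6 group means, giving 17692 tested genes and 11 comparisons. Calls needed a Benjamini-Hochberg adjusted p under 0.05 within a comparison. The SE was not estimated directly. It is the size of the log2 change divided by the square root of the quasi-likelihood F, and the 95% intervals are built from it. In data simulated for FIP1 knockouts against wild type in distal colon (17692 genes), 58% of 2-fold and 95% of 4-fold changes were recovered. Only 100 genes were changed by each fold, a far smaller share than the 16.3% called in the real comparison. The lowest levels were left out of the changed genes, and the spread was set by level instead of gene by gene. These shares are therefore not the power of the tests on the real libraries. Counts per library were 11193308 to 22062300, and the precision of a level is limited by its own count. Alternatives were DESeq2 1.42.0, relative log expression size factors, no filter, the compared libraries alone, a replicate block, limma 3.58.1 on log2(FPKM + 1) and log2(FPKM + 0.1), removal of mitochondrially encoded genes, and leaving out each library.

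The members and lists were chosen with earlier results of these data known. Named genes are the members, Rab11fip1 and Rab11fip2, up to 4 called genes per list and comparison by adjusted p, and, of the 3 genes most like each member, 1 to 3, with 1 gene not reported here; others named were chosen after their values were seen. Positions are those of the deposited table on GRCm38, the same in GENCODE M21 for 98.3% of shared gene identifiers. Same-numbered distal and proximal libraries deviated together in FIP2 knockouts (r 0.355, 0.2 and 0.242 over tested genes, against at most 0.0418 for different numbers). In FIP1 knockouts the r were 0.2, 0.175 and 0.0683, against at most -0.00297 for different numbers. Over genes of at least 1 mean CPM they were 0.242, 0.213 and 0.127, against at most 0.00391. In wild type the r were -0.0816, 0.11 and 0.169, against up to 0.0596 for different numbers. Over genes of at least 1 mean CPM the wild-type r were -0.0928, 0.153 and 0.273, against up to 0.121. Deviations were taken from the mean of each group of 3, so same-numbered and differently numbered r are not independent. Whether the numbers pair libraries of the same mouse is not given in the sources used here.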

Additional observations from a re-analysis of the deposited data

How the results depend on the processing

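Counts of called genes are given as the value under the alternative, with the value in the text in brackets. The cause of each shift was not tested. Of the 9 genes, no direction reversed for a called value under any alternative run. With the compared libraries alone, 1287 genes were called in proximal FIP1 knockouts (2404), 1511 in proximal FIP2 knockouts (2594) and 1810 between wild-type segments (2893). Distal FIP1 and FIP2 knockouts gave 2983 (2886) and 3080 (3274). Of the 9 genes 1 was called in proximal FIP1 knockouts (2) and 1 in the FIP1 effect difference (0). Without a filter, 1154 and 1398 genes were called between the knockouts in distal and proximal colon (329 and 486), and 644 and 483 in the FIP1 and FIP2 effect differences (114 and 58). The 9 genes then gave 2 calls in proximal FIP2 knockouts (1), 1 between the knockouts in proximal colon (0), and 3 and 1 in the effect differences (0 and 0). With DESeq2 the same 4 comparisons gave 744, 1059, 339 and 251 genes, and of the 9 genes 3 were called in proximal FIP2 knockouts and 1 and 1 in the effect differences. Relative log expression size factors gave 2 calls among the 9 in proximal FIP2 knockouts. In limma on log2(FPKM + 1), 185 and 120 genes were called in the effect differences and 1 of the 9 genes between FIP1 knockout segments (2). Without a filter limma gave 2063 genes (3274) and 3 of the 9 (5) in distal FIP2 knockouts, 1 of the 9 (2) in proximal FIP1 knockouts and 299 genes (486) between proximal knockouts. On log2(FPKM + 0.1), 2 of the 9 were called in proximal FIP2 knockouts and 1 between FIP1 knockout segments. FPKM are not scaled for composition, and limma shifted the median change of all genes by 0.142 and 0.158 in distal and proximal FIP1 knockouts, 0.154 in proximal FIP2 knockouts and -0.117 between wild-type segments.

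The replicate block gave 262 and 202 genes in the FIP1 and FIP2 effect differences and, of the 9, 2 and 1. For comparisons that involve both segments the block paired distal and proximal libraries of a number within a genotype. Between genotypes it was the replicate number shared across genotypes. In proximal FIP2 knockouts this gave 2 of the 9, adding Nod2 (0.87, edgeR adjusted p 0.047). Same-numbered proximal wild-type and FIP2 knockout libraries had an r of 0.0449, 0.0721 and 0.0565 over tested genes. The replicate block changed no other call of the 9. In both knockouts every same-numbered distal and proximal pair deviated together more than any differently numbered pair, over either set of genes. In wild type this held over neither set. Deviations from a group mean cancel within the group, so a high same-numbered r goes with low differently numbered ones by construction. The effect differences contain the wild-type libraries.

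Leaving out 1 library at a time gave 1775 to 2389 genes and 3 to 5 of the 9 in distal FIP1 knockouts, 1483 to 2374 and 0 to 2 in proximal FIP1 knockouts, 1853 to 2918 and 4 to 5 in distal FIP2 knockouts, 1555 to 3645 and 1 to 2 in proximal FIP2 knockouts, 107 to 256 and 0 between distal knockouts, 193 to 521 and 0 between proximal knockouts, 695 to 1130 and 1 to 2 between FIP1 knockout segments, 1069 to 1385 and 3 between FIP2 knockout segments, and 40 to 153 and 33 to 75 in the FIP1 and FIP2 effect differences, with 0 of the 9 in each. Between wild-type segments it gave 2066 to 2781 and 6. Removing mitochondrially encoded genes changed no count of the 9. Low counts limit Tlr5, Nod2 and above all Tlr9.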
